A study of Mus musculus with 4 samples.

Results

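Core components of the spliceosome were followed in libraries labelled as mouse cells kept with or without 1-nitropyrene, a nitrated polycyclic aromatic hydrocarbon found in diesel exhaust. The set holds 53 listed genes, chosen by role and not by a threshold on their counts: proteins of the U1, U2, U4/U6 and U5 small nuclear ribonucleoproteins (snRNPs), the SF3 and U2AF factors, the PRPF proteins and close partners, Wbp11 among them. All 53 symbols were found among the 53465 gene identifiers of the table. A count was present in at least 1 library for 49 of them, and 46 passed the filter on low counts and are among the 7738 genes tested. Polyadenylated RNA was sequenced from 4 libraries whose label is MLE-12, an established line from mouse lung epithelium that the submitters equate with alveolar type 2 cells. In 2 of them (control replicates 1 and 2) the cells received no compound, and in the other 2 (1-nitropyrene replicates 2 and 3) they received 5 µM 1-nitropyrene for 12 h. Every library is thus labelled as 1 line grown with serum, and the labels give no genetic change. The study's stated question concerned translation of Fbxw7 mRNA, whereas the counts measure RNA levels only.

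The spliceosome removes introns from pre-mRNA. U1 snRNP pairs with the 5′ splice site, SF1 and the U2AF dimer mark the branch point and the 3′ splice site, and U2 snRNP with the SF3 proteins then takes the branch point. The U4/U6.U5 tri-snRNP joins next, the PRP19 complex (also called NTC) accompanies activation, and the helicase SNRNP200 and the scaffold PRPF8 of U5 snRNP carry the rearrangements that form the catalytic centre. Except for the U6 particle, the snRNPs carry a ring of Sm proteins around their RNA. The core proteins serve intron removal in all cell types.

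Total counts per library ranged from 6908055 to 10773733. Levels are TMM-normalised CPM (counts scaled by TMM-adjusted library size), and a gene was called when the Benjamini-Hochberg adjusted p of edgeR's quasi-likelihood test over the 7738 genes was below 0.05. Separate cultures are not stated for the libraries, so p-values measure the spread between these libraries, pooled over all genes, which may be technical. The label was not borne out by most of its markers: 6 of 6 lung epithelial markers (Krt8, Krt18, Krt19, Cdh1, Epcam, Nkx2-1) and 4 of 7 alveolar type 2 markers (Sftpa1, Sftpb, Sftpd, Napsa) had 0 counts in all 4 libraries. Of the other alveolar type 2 markers, Sftpc had 1 count and Lamp3 had 2, both in control replicate 1 only. Abca3 had 109 and 56 counts in the controls against 83 and 69 with 1-nitropyrene, and was not called. Zeros were frequent beyond the markers, since 55.2% of 21942 protein-coding genes had no count in any library, so these zeros do not show which cells were sequenced. Whether the reads come from the labelled species and line, and whether the table holds all of their counts, was not tested. Every level, 0 and comparison of a gene with its sequence copy below describes these counts as deposited. The summed level of 9 fibroblast and mesenchyme markers was 956 and 961 CPM in the controls against 1190 and 1185 CPM with 1-nitropyrene. Its 4 tested genes differed in direction: Fn1 (189 and 179 against 423 and 398 CPM) and Vim were called higher, Sparc (425 and 442 against 378 and 383 CPM) lower, and Pdgfra was not called. The rest were too low to test. Counts in the controls against 1-nitropyrene were 9 and 5 against 0 and 2 (Col1a1), 17 and 7 against 0 and 1 (Col1a2) and 13 and 3 against 2 and 0 (Col3a1). Pdgfrb had at most 5 counts in a library and Thy1 had 0 throughout. Endothelial and white blood cell markers summed to between 0 and 0.286 CPM per library, with Tek, Cd3e, Adgre1 and Cd68 at 0 throughout. Loci of ribosomal RNA took 46.1% and 45.8% of control counts and 44.5% and 44.3% of treated counts. The 13 mitochondrial mRNAs summed to 46.4 and 30.1 CPM in the controls, and to 24.8 CPM (replicate 2) and 1.88 CPM (replicate 3) after treatment. The part of these differences in the results that follow was not tested, except that the fit without ribosomal RNA loci gave the same member counts, 15 higher and 2 lower. In bulk RNA, fewer cells of a type and less RNA per cell cannot be told apart.

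Of the 46 tested members, 15 rose with 1-nitropyrene (32.6%) and 2 fell (4.35%), where 13.2% of all tested genes were called higher and 11.2% lower. Wbp11 doubled, with a fold of 2.03. Of the 15 rises, 11 lay in 3 groups. They were Sf1 and U2af2 (2 of 3 tested), 6 of 12 U2 and SF3 genes, and Prpf8, Snrnp200 and Eftud2 of U5 (3 of 3). Of the 6 rises in U2 and SF3, only that of Sf3b3 was called under every alternative setting. The 2 falls were of Luc7l3, a U1-associated protein, and Rbm17, a U2-associated factor. The median log2 fold change was 0.09 over the tested members and 0.00 over all tested genes (-0.00354 before rounding). Both treated libraries lay above both controls for 22 members and below them for 6, beside 30.0% and 29.2% of all tested genes. Called genes were more frequent at higher levels: among the 4698 tested genes whose mean reached 10 CPM, 19.8% were called higher and 14.4% lower, and of the 41 members at that level 34.1% and 4.88%. DESeq2 called 9 members higher and 2 lower, beside 9.97% and 6.15% of all genes to which it gave an adjusted p. The summed level of all 53 members was 5067 and 5053 CPM in the controls against 5722 and 5727 CPM with 1-nitropyrene, a ratio of 1.13. An exact two-sided permutation test of that sum gave p = 0.333, the smallest p that 2 libraries against 2 can give.

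**Figure D1:**
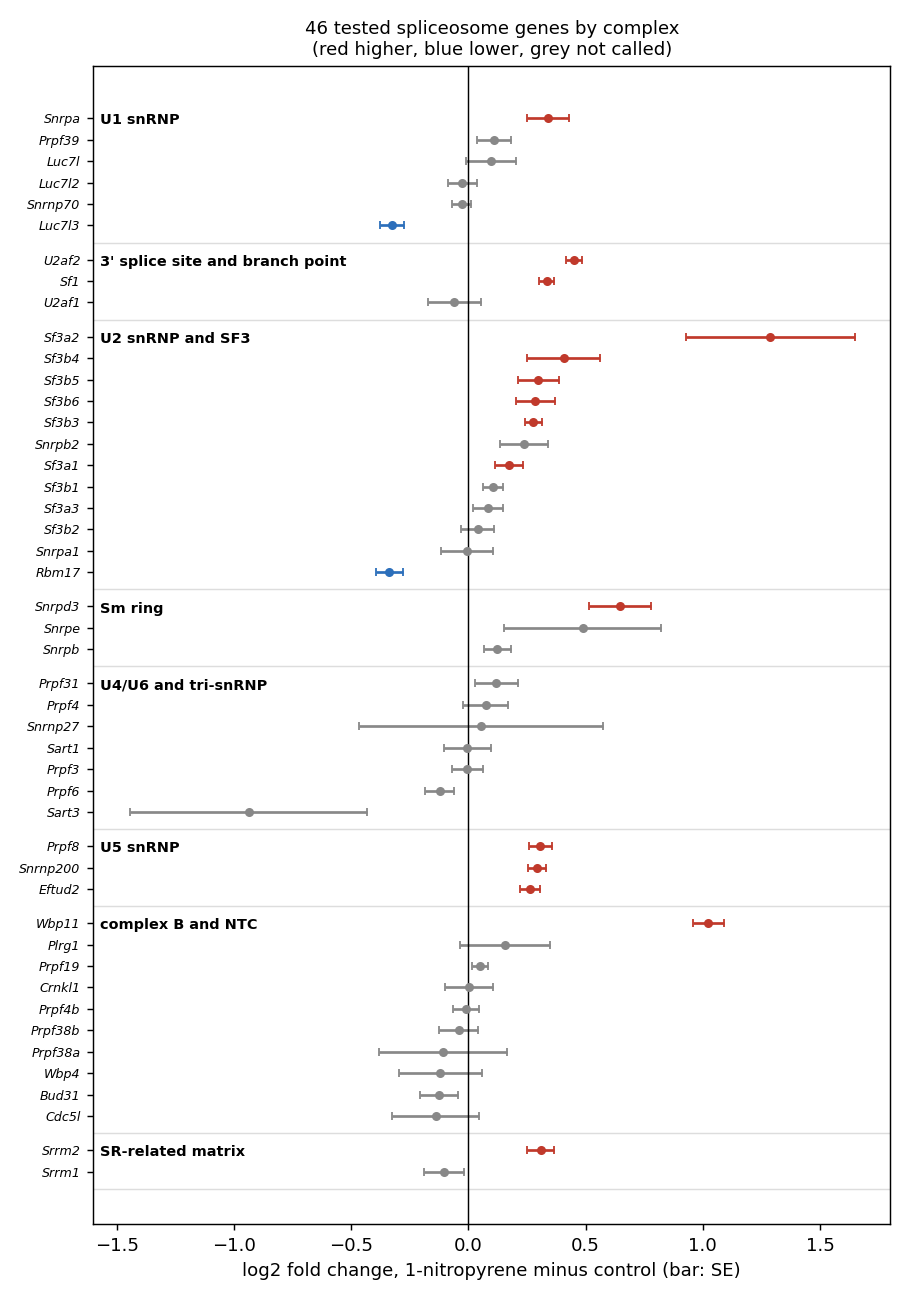
Log2 fold change (1-nitropyrene minus control, horizontal axis) of the 46 tested members, grouped by complex; bars are standard errors, red marks genes called higher, blue lower and grey not called. The 3 tested genes grouped as U5 snRNP sit together near 0.3. The 7 grouped as U4/U6 and tri-snRNP, Prpf6 among them, have no call. Wbp11 stands at 1.02 apart from the other proteins of complex B and NTC.

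**Figure D2:**
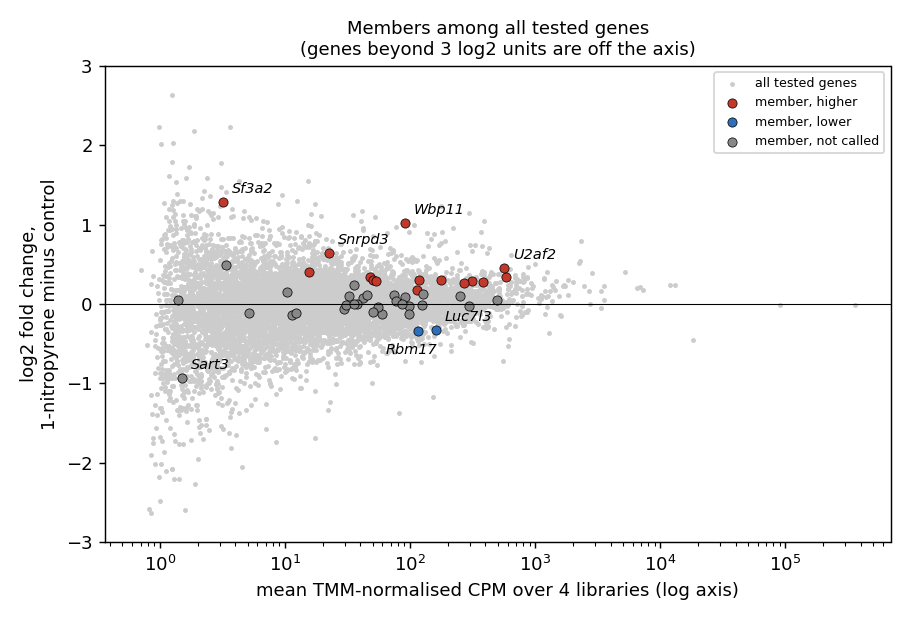
Mean level over the 4 libraries (TMM-normalised CPM, log axis) against log2 fold change for all 7738 tested genes (light grey; 5 genes lie off the axis), with the members in colour. Most members lie within the cloud of other genes, and Wbp11 stands above the other members of its level.

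Upstream sequence is shown for the 4 members whose calls were the steepest in each direction among those called under every alternative setting: Wbp11 and Snrpd3, which rose, and Rbm17 and Luc7l3, which fell. They set genes of 1 machine that were called in opposite directions side by side. The windows are the 250 bases before the RefSeq start site on GRCm38.p6, printed 5′ to 3′ on the gene's strand: Wbp11 at chr6:136828217-136828466 (minus strand), Snrpd3 at chr10:75517792-75518041 (plus), Rbm17 at chr2:11603200-11603449 (minus) and Luc7l3 at chr11:94321964-94322213 (minus). The Snrpd3 and Rbm17 windows lie inside the GENCODE span of the gene, whose outermost start is further upstream. Capitals mark CCAAT (the CCAAT box) and GCGTG (the core of the element bound by the Ah receptor, a sensor of polycyclic hydrocarbons) on either strand.
Wbp11: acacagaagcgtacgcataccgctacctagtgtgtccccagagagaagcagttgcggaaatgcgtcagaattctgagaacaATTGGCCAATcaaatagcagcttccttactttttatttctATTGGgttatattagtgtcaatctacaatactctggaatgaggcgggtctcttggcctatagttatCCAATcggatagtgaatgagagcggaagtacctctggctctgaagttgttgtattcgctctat
Snrpd3: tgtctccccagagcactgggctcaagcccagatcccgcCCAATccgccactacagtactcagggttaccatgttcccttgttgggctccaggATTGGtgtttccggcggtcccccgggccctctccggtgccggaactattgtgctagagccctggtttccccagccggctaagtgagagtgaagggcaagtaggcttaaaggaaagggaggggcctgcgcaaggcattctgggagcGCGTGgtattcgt
Rbm17: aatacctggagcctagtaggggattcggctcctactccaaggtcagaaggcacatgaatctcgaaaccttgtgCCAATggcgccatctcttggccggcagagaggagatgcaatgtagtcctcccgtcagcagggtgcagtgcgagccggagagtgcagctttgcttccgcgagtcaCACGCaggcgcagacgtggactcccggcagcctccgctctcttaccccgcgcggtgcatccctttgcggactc
Luc7l3: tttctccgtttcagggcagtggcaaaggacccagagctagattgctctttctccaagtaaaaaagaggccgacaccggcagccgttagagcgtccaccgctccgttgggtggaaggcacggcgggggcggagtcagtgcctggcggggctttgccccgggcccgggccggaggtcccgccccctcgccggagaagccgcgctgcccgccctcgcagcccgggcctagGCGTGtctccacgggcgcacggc
The Wbp11 window held 4 CCAAT matches, a pair of which abut on opposite strands, and no GCGTG. Snrpd3 held 2 CCAAT matches and Rbm17 held 1, each with 1 GCGTG match, and Luc7l3 held 1 GCGTG match and no CCAAT.

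RefSeq windows were matched for 44 of the 53 members (51 windows). CCAAT was in 41.2% of the members' windows and in 33.8% of all 32851 windows of the same length. GCGTG was in 64.7% of the members' windows and 28.2% of all, the GC box GGGCGG in 56.9% and 32.7%, the ETS site CCGGAAG in 29.4% and 6.91%, and the cyclic AMP response element TGACGTCA in 5.88% and 1.55%, each counted on both strands. Each motif was searched separately, so matches of different motifs may overlap. The windows of all genes were not matched to the members for base composition or expression level. The members' share was the higher one for every motif listed, not for GCGTG alone, and no difference was tested. A match is a description of letters, not a bound site.

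Wbp11, which binds the WW domains of splicing factors and is a partner of the spliceosome, had the largest log2 fold change among the 11 members called under every alternative setting. Its level was 59.4 and 60.1 CPM in the control libraries and 121 CPM in each treated library. The replicates differed far less than the groups. The groups did not overlap, as in the higher direction for 30.0% of all tested genes. The log2 fold change was 1.02 (SE 0.07, 95% interval of the fold 1.86 to 2.23, edgeR adjusted p = 6.1e-50). It lay between 0.99 and 1.03 over the 14 alternative settings and was called in each. Wbp11 (GRCm38 chromosome 6, 136813654 to 136828233) shares 325 bp of exon with BC049715 on the opposite strand, which had 0 counts in all 4 libraries. The other 9 members of complex B and NTC, including Wbp4, which encodes a WW domain protein, were not called. Prpf19, the ubiquitin ligase at the heart of NTC, was at 479 and 492 CPM in the controls against 495 and 511 CPM with 1-nitropyrene (fold 1.04, 95% interval 0.99 to 1.09, adjusted p = 0.288, edgeR). The log2 fold changes of the remaining 8 lay between -0.14 (Cdc5l, the NTC scaffold) and 0.16 (Plrg1, an NTC WD-repeat protein). Within a library, where scaling cancels, there were 5.09 and 4.37 Wbp11 counts per Wbp4 count in the controls against 12.4 and 9.15 with 1-nitropyrene.

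**Figure D3:**
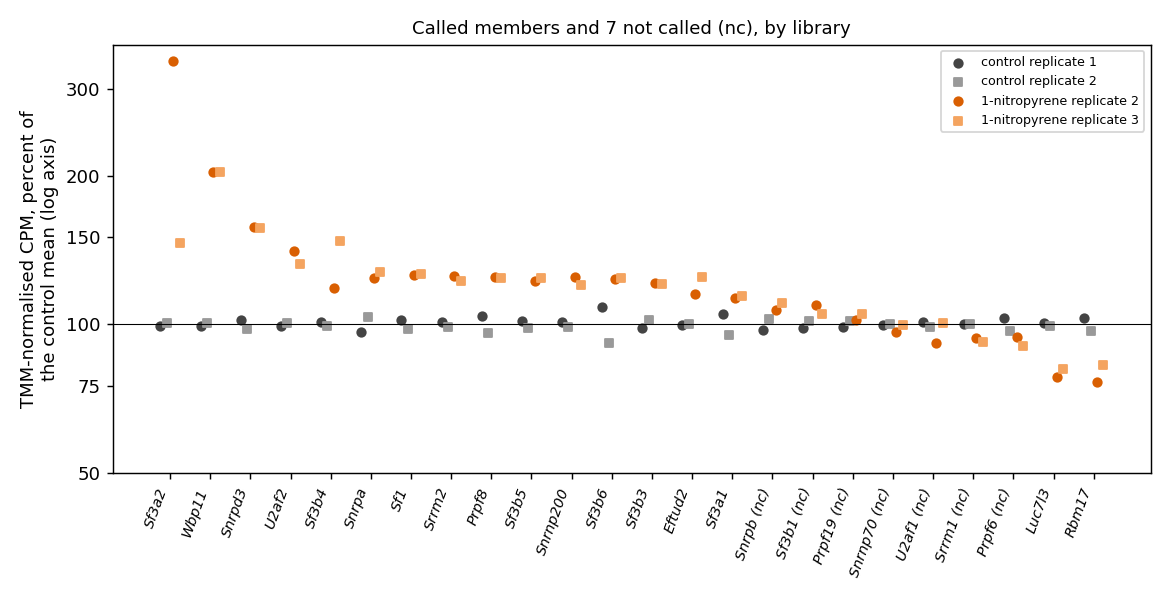
TMM-normalised CPM of the 17 called members and of 7 members not called (nc), each in percent of its control mean (log axis), 1 point per library. Grey points are controls and orange points 1-nitropyrene: the treated libraries lie well above the controls for Wbp11 (121 against 59.4 and 60.1 CPM), and below them for Luc7l3 and Rbm17.

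At the branch point and the 3′ splice site, 2 of 3 members rose, where 13.2% of all tested genes were called higher. U2af2, the large U2AF subunit that binds the polypyrimidine tract, was at 472 and 479 CPM in the controls against 671 and 629 CPM after treatment, which is a log2 change of 0.45 (SE 0.03, adjusted p = 6.36e-41, edgeR). Sf1, which binds the branch point first, was at 531 and 510 CPM in the controls against 657 and 658 CPM with 1-nitropyrene (0.33, SE 0.03, adjusted p = 2.08e-23). In both genes every treated library exceeded every control, as for 30.0% of all tested genes. U2af1, the small subunit that reads the AG at the intron's end, was at 30.7 and 29.9 CPM in the controls against 27.8 and 30.5 CPM with 1-nitropyrene. These values overlapped (fold 0.96, 95% interval 0.824 to 1.12, adjusted p = 0.758, edgeR). Set against each other within a library, there were 15.4 and 16 U2af2 counts per U2af1 count in the controls against 24.1 and 20.6 with 1-nitropyrene, a ratio of 1.42 between the group means. The groups of ratios did not overlap, and the exact permutation test gave p = 0.333, its smallest value. Per kilobase of annotated exon, U2af2 (137 CPM per kb) and Sf1 (94.8 CPM per kb) had the highest mean levels among all members, while U2af1 had 11.4 CPM per kb. Both the ratio and the U2af1 level leave out Gm10232, a near-identical sequence copy of U2af1 described below. That copy had 507 and 354 counts in the controls against 385 and 360 with 1-nitropyrene, more than U2af1 in each library.

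U2 snRNP and the SF3 proteins had 6 of 12 members higher and 1 lower (50% and 8.33%), beside 13.2% and 11.2% of all tested genes. Sf3b3, a beta-propeller scaffold of SF3b, was at 340 and 353 CPM in the controls against 421 and 418 CPM with 1-nitropyrene (log2 fold change 0.28, SE 0.04, adjusted p = 2.02e-12, edgeR). It was the only member of this group that rose under all 14 alternative settings. The other 5 calls ended under some of them. Sf3b5, a small SF3b subunit, was at 45.5 and 44 CPM in the controls against 54.8 and 55.5 CPM with 1-nitropyrene. Its log2 change of 0.30 (SE 0.09, adjusted p = 0.00403, edgeR) was not called without control replicate 2 (adjusted p = 0.0539). Sf3b6, which contacts the branch point region, was at 51.4 and 43.5 CPM in the controls against 58.6 and 58.8 CPM with 1-nitropyrene (0.29, SE 0.08), and lost its call without the same library (adjusted p = 0.208, edgeR). Both were also not called by DESeq2 (adjusted p = 0.101 and 0.111). Sf3b6 was also not called without the filter (adjusted p = 0.0535, edgeR).

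Sf3a1, the SF3a subunit with a ubiquitin-like domain, was at 110 and 100.2 CPM in the controls against 119 and 120 CPM with 1-nitropyrene (log2 fold change 0.17, SE 0.06, adjusted p = 0.0186, edgeR). That call ended without control replicate 2 (log2 change 0.11), without 1-nitropyrene replicate 2 (0.18) and without 1-nitropyrene replicate 3 (0.16). It also ended without scaling factors, without the filter and in DESeq2 (adjusted p = 0.192). Sf3b4, which binds RNA near the branch point, was at 13.4 and 13.2 CPM in the controls against 15.7 and 19.6 CPM with 1-nitropyrene (0.41, SE 0.16, adjusted p = 0.0412). It was not called without control replicate 1 (adjusted p = 0.195), control replicate 2 (0.138) or 1-nitropyrene replicate 3 (0.449). Sf3a2, another SF3a subunit, had 20 and 13 counts in the controls against 55 and 23 counts with 1-nitropyrene, so that 1-nitropyrene replicate 2 stood apart. Its log2 change of 1.29 (SE 0.36, adjusted p = 0.00264, edgeR) fell to 0.54 without that library. The call ended without that library, without control replicate 1 and without the filter. Sf3a2 shares 429 bp of exon with Plekhj1 on the opposite strand, which had 26, 19, 33 and 17 counts in the same order.

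Sf3b1, which holds the branch point adenosine and is the largest SF3b subunit, was at 236 and 244 CPM in the controls against 263 and 253 CPM with 1-nitropyrene. The treated libraries lay above the controls, as for 30.0% of all tested genes. Sf3b1 had a fold of 1.07 (95% interval 1.01 to 1.14) and an adjusted p of 0.0602 in edgeR. It was called without 1-nitropyrene replicate 3 (adjusted p = 0.0404). Rbm17, also called SPF45, an alternative splicing factor found with U2 snRNP, went the other way. It was at 133 and 125 CPM in the controls against 98.2 and 106 CPM after treatment, which is a log2 change of -0.34 (SE 0.06, adjusted p = 1.86e-07, edgeR), and was called under all 14 alternatives. For every Sf1 count there were 0.25 and 0.244 Rbm17 counts in the controls against 0.15 and 0.162 with 1-nitropyrene. The remaining members of this group that were not called, Sf3a3, Sf3b2, Snrpa1 and Snrpb2, had log2 fold changes between -0.01 and 0.24.

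The 3 tested genes grouped here as U5 snRNP rose, by 1.2 to 1.24-fold, where 13.2% of all tested genes were called higher. Prpf6, a U5 protein that bridges to U4/U6, was grouped with the tri-snRNP and was not called (fold 0.919). Prpf8, the scaffold of the catalytic centre, was at 162 and 150.1 CPM in the controls against 194 CPM in each treated library (log2 fold change 0.31, SE 0.05, adjusted p = 9.91e-09, edgeR). Snrnp200, the helicase that unwinds U4/U6, was at 284 and 277 CPM in the controls against 350 and 338 CPM with 1-nitropyrene (0.29, SE 0.04, adjusted p = 4.86e-12). Eftud2, the GTPase of U5 snRNP, was at 243 and 244 CPM in the controls against 281 and 304 CPM with 1-nitropyrene (0.26, SE 0.04, adjusted p = 7.77e-09). In each gene both treated libraries lay above both controls, as for 30.0% of all tested genes. All 3 were called under the 14 alternatives. Eftud2 shares 2261 bp of exon with Gm26668 on the opposite strand, which had between 211 and 280 counts per library.

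Of the 7 tested genes of U4/U6 and the tri-snRNP, 0 were called by edgeR, 0 had an unadjusted p under 0.05, and DESeq2 called 0 of the 5 to which it gave an adjusted p. Prpf6, which bridges U5 with U4/U6, was at 105 and 99.2 CPM in the controls against 96.3 and 92.3 CPM with 1-nitropyrene (fold 0.919, 95% interval 0.844 to 1, adjusted p = 0.151, edgeR). Prpf3, Prpf4, Prpf31 and Sart1, the core U4/U6 proteins and a tri-snRNP factor, had log2 fold changes between -0.00 (-0.00384) and 0.12. Snrnp27 had 10 to 14 counts per library. Sart3, which reassembles U4 with U6, had 25 and 11 counts in the controls against 16 and 2 with 1-nitropyrene, and a log2 change of -0.94 (SE 0.51, adjusted p = 0.175). Its value rests on 1-nitropyrene replicate 3, which also had the fewest mitochondrial counts, and a link between them was not tested. The log2 change of Sart3 was -3.03 without 1-nitropyrene replicate 2 and -0.13 without 1-nitropyrene replicate 3. Snrnp200 and Prpf8 can be set against Prpf6 within libraries. There were 2.71 and 2.79 Snrnp200 counts per Prpf6 count in the controls against 3.64 and 3.66 with 1-nitropyrene, and 1.54 and 1.51 Prpf8 counts against 2.02 and 2.1. Neither set of ratios overlapped between groups, with an exact permutation p of 0.333, the smallest possible.

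Among 7 members of U1 snRNP, Snrpa rose and Luc7l3 fell. Snrpa, whose protein binds a loop of U1 RNA, was at 41.1 and 44 CPM in the controls against 52.7 and 54.2 CPM with 1-nitropyrene (log2 fold change 0.34, SE 0.09, adjusted p = 0.00108, edgeR). The call ended without control replicate 1 (adjusted p = 0.1) and in DESeq2 (adjusted p = 0.0688). Luc7l3, a relative of the yeast U1 protein Luc7 that influences the choice of 5′ splice sites, was at 181 and 178 CPM in the controls against 140 and 145 CPM with 1-nitropyrene (-0.33, SE 0.05, adjusted p = 3.95e-09). It was called lower under all 14 alternatives. Its relatives were not called, with Luc7l2 at 97.4 and 102 CPM in the controls against 100.4 and 94.5 CPM with 1-nitropyrene, and Luc7l at 30.7 and 32.2 against 30.6 and 36.4 CPM. There were 1.85 and 1.75 Luc7l3 counts per Luc7l2 count in the controls against 1.4 and 1.54 with 1-nitropyrene, which did not overlap (exact permutation p = 0.333, the smallest possible). Snrnp70, the U1-70K protein at the 5′ splice site, was at 297 CPM in each control and 286 and 296 CPM with 1-nitropyrene (fold 0.981, 95% interval 0.928 to 1.04). Prpf39, a U1-associated repeat protein, had a log2 fold change of 0.11 (SE 0.07). It was called higher without 1-nitropyrene replicate 2 (0.26, adjusted p = 0.00963, edgeR), and 1-nitropyrene replicate 3 was the higher of the treated libraries, at 86.2 against 68.9 CPM.

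Of the 7 Sm ring genes only 3 could be tested. Snrpd3 was at 17.6 and 16.9 CPM in the controls against 27.2 and 27.1 CPM with 1-nitropyrene (log2 fold change 0.65, SE 0.13, adjusted p = 1.22e-05, edgeR), and was called under all 14 alternatives. It shares 232 bp of exon with Gucd1 on the opposite strand, which had 11 to 32 counts per library. Snrpb, which binds Snrpd3 in the ring, was at 119 and 125 CPM in the controls against 130 and 134 CPM with 1-nitropyrene. Its fold was 1.09 (95% interval 1.01 to 1.18) with an adjusted p of 0.0932 in edgeR. The groups did not overlap, as in the higher direction for 30.0% of all tested genes. Each Snrpb count was matched by 0.149 and 0.135 Snrpd3 counts in the controls against 0.209 and 0.202 with 1-nitropyrene. Snrpe had 36 and 15 counts in the controls against 46 and 23 with 1-nitropyrene, and was not called (adjusted p = 0.31).

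Members at or near 0 counts could not be compared. Snrpf and Snrpg of the Sm ring, Snrpc of U1 snRNP and Snrnp40 of U5 snRNP had 0 counts in all 4 libraries, a floor of 3 counts allowing up to 0.43 CPM in the shallowest. Snrpd1 had 3, 2, 4 and 4 counts, Snrpd2 had 1 count in 1-nitropyrene replicate 2 and none elsewhere, and Snrnp48 of the minor spliceosome had 1 count in each of 2 libraries. The Sm proteins are required in every cell with introns to remove, and a count of 0 here is not read as absence of the transcript.

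Sequence copies bear on several members. Processed pseudogenes with at least 95% identity over at least 100 bases are described for 5 members, chosen after their counts were seen. Snrpd1 had 2 to 4 counts per library, whereas its copy Gm14277 (97.8% identical over 360 bases) had 483 and 328 counts in the controls against 424 and 341 with 1-nitropyrene (log2 fold change -0.03, SE 0.09, adjusted p = 0.847, edgeR). U2af1 had 334 and 209 counts in the controls against 242 and 260 with 1-nitropyrene, and its copy Gm10232 (99.7% over 720 bases) had 507 and 354 against 385 and 360. Gene and copy together stood at 77.3 and 80.6 CPM in the controls against 72 and 72.8 CPM with 1-nitropyrene. Gm5846, a copy of U2af2, had 43 and 29 counts in the controls against 62 and 65 with 1-nitropyrene (0.87, SE 0.26, adjusted p = 0.00613, edgeR), few beside the 3344 to 5837 counts of the gene. Gm7935, a copy of Sf3b4 (99.3% over 1278 bases), had 69 and 44 counts in the controls against 88 and 95 with 1-nitropyrene (0.75, SE 0.21, adjusted p = 0.00351), the same direction as Sf3b4. Gm9030, a copy of Cdc5l, had 142 and 99 counts against 140 and 142 and was not called. The way the authors' counting treated reads that match several places is not given in the sources used here. The processed pseudogenes matched to Snrpf, Snrpg and Snrpc had 0 counts in all 4 libraries.

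**Figure D4:**
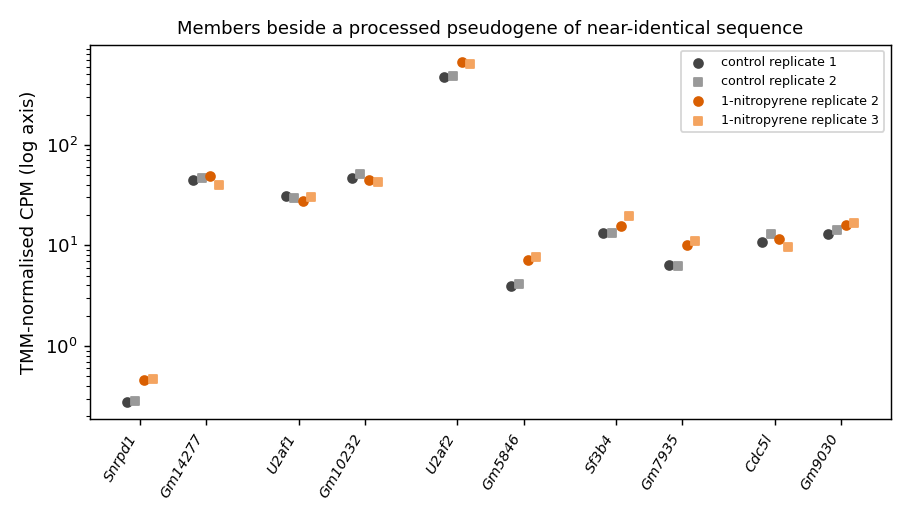
TMM-normalised CPM (log axis) of 5 members and, to the right of each, a processed pseudogene of near-identical sequence, 1 point per library. For Snrpd1 the copy lies far above the gene, for U2af1 and Cdc5l it lies slightly above, and for U2af2 far below.

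Srrm2 and Srrm1, large serine-arginine-rich proteins of the splicing matrix and of nuclear speckles, differed in their calls. Srrm2 was at 106 and 104 CPM in the controls against 131 and 128 CPM with 1-nitropyrene (log2 fold change 0.31, SE 0.06, adjusted p = 2.15e-06, edgeR), and was called under all 14 alternatives. Srrm1 was at 52.7 CPM in each control and 49.4 and 48.6 CPM with 1-nitropyrene. Its groups did not overlap either, in the lower direction, but the fold of 0.931 (95% interval 0.828 to 1.05) was not called (adjusted p = 0.417, edgeR). There were 2.01 and 1.97 Srrm2 counts per Srrm1 count in the controls against 2.66 and 2.64 with 1-nitropyrene.

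Of the 46 tested members 19 share exon sequence with a gene on the other strand, and so do 9 of the 17 called members, all 9 among the rises. Whether the authors counted by strand is not given in the sources used here. Among the 19 tested members with shared exon 9 were higher, and among the 27 with none 6 were higher and 2 lower. Of all 7738 tested genes, 1024 were higher (13.2%) and 870 lower (11.2%). Of the 4698 whose mean reached 10 CPM, 932 were higher (19.8%) and 678 lower (14.4%). These shares over all genes were not split by shared exon, and the part of shared exon in the members' calls was not tested. The partners of Sf1, Wbp11 and Sf3b4 had at most 1 count in any library, and those of Snrpa had at most 7.

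Among the other spliceosome genes tested, more were called higher than lower. From a list of 116 further genes of the machinery and of snRNP assembly, 115 symbols were matched and 74 tested. Of the tested genes on this list, 16 rose (21.6%) and 3 fell (4.05%), beside 13.2% and 11.2% of all tested genes. Their median log2 fold change was 0.10. These shares were not matched for level, and calls were more frequent at higher levels. When the fit kept only genes averaging 10 CPM or above, 12 of 56 on the list rose (21.4%) and 4 fell. Of all 4698 genes in that fit, 836 rose (17.8%) and 804 fell, so the list's share of rises was close to that of all genes. In the same fit 13 of 41 members rose (31.7%) and 2 fell. Differences between these shares were not tested. The steepest rise among those named was of Strap, a WD-repeat protein of the SMN complex that loads Sm rings onto snRNA. It was at 53.1 and 50.3 CPM in the controls against 99.3 and 104 CPM with 1-nitropyrene (log2 fold change 0.97, SE 0.07, adjusted p = 2.05e-38, edgeR). Prmt5, which methylates Sm proteins before assembly, rose by 0.27 (SE 0.05), and the cap-binding subunit Ncbp1 by 0.24 (SE 0.06), a call that ended without control replicate 1 (adjusted p = 0.0784). Of 7 LSm ring genes 3 were tested, and Lsm2 rose from 12.7 and 12.7 CPM to 21.1 and 22 CPM (0.76, SE 0.15). Lsm3, Lsm6 and Lsm7 had 0 counts in every library, as had 17.4% of the matched list and 55.2% of protein-coding genes.

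Among the other U5 and tri-snRNP genes 3 of 10 tested rose (30%, beside 13.2% of all tested genes). They were the kink-turn protein Snu13 (0.42, SE 0.08), the U5 assembly factor Aar2 (0.64, SE 0.15) and the second-step factor Prpf18 (0.33, SE 0.12). The last was not called without control replicate 2, without 1-nitropyrene replicate 3 and under other settings, DESeq2 and limma-voom among them. The branch-site helicase Dhx15, which also releases spent spliceosomes, rose by 0.27 (SE 0.03), as did the polypyrimidine-binding Puf60 (0.27, SE 0.05). Prpf40b, a relative of a yeast U1 protein, fell from 17.5 and 18.6 CPM to 9.77 and 7.4 CPM (-1.06, SE 0.17, adjusted p = 2.99e-08). Rbm10 fell by 0.14 on the log2 scale (SE 0.05, adjusted p = 0.0433), a call lost without each of the 4 libraries in turn.

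For the second step, exon junction and release, 5 of 13 tested genes rose and 1 fell (38.5% and 7.69%). These stand beside 13.2% and 11.2% of all tested genes. The fall was of Pnn, an exon junction partner, by 0.21 on the log2 scale (SE 0.08), a call lost without each of the 4 libraries in turn. The splicing activator Rnps1 rose by 0.42 (SE 0.06), the mRNA export helicase Ddx39b by 0.23 (SE 0.04) and the disassembly factor Tfip11 by 0.86 (SE 0.16), with 515 bp of exon shared with Srrd. Among 16 tested genes of complex B and activation only the isomerase Cwc27 was called (0.61, SE 0.24, adjusted p = 0.0462), and that call ended without 3 of the 4 libraries (largest adjusted p = 0.472). Of the 4 tested genes of the minor spliceosome, 0 were called by edgeR and 0 had an unadjusted p under 0.05.

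**Figure D5:**
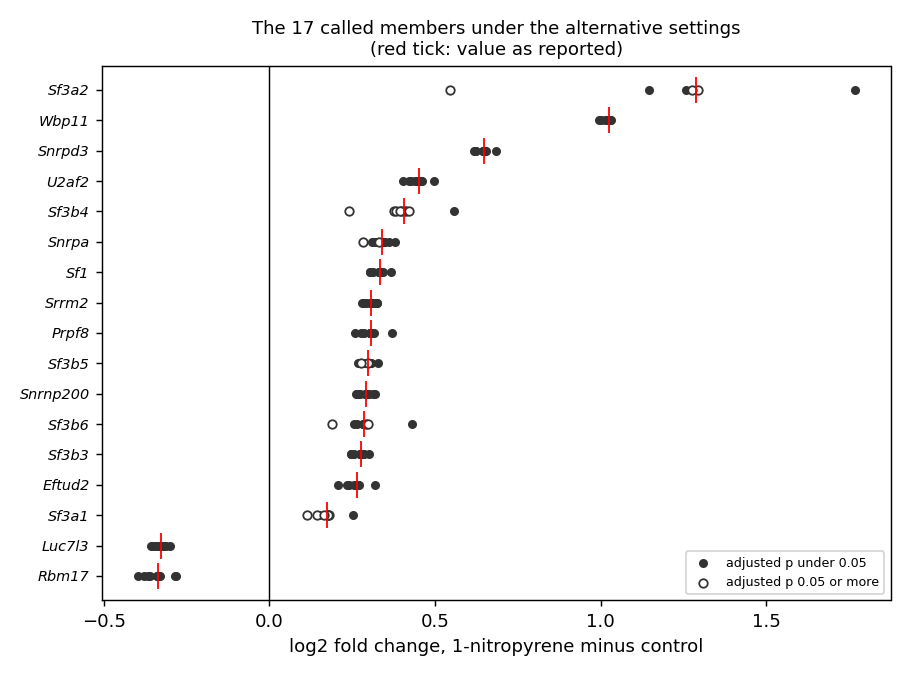
Log2 fold change (horizontal axis) of the 17 called members under the alternative settings, 1 point per setting; filled points have an adjusted p under 0.05 and open points do not, and the red tick is the value as reported. The 11 members with filled points throughout include Wbp11, Snrpd3, U2af2, Sf1, Luc7l3 and Rbm17, and open points are most frequent for Sf3b4 and Sf3a1.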

How the data were processed

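The values deposited by the authors are raw counts for each gene and library, not normalized. Named in the submitters' processing notes, without roles, are GRCm38 (mm10), DESeq2, featureCounts 1.6.3 and HISAT2 2.1.0, and the kit was stranded per the labels' protocols. Not given in the sources used here were the annotation, the strand setting and the handling of multi-mapping reads. Groups and replicate numbers come from the sample titles. Symbols, positions and exon lengths come from GENCODE M21 on GRCm38 (105 of 53465 identifiers unmatched), and promoter windows from RefSeq (GRCm38.p6).

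Counts were filtered with filterByExpr (7738 genes), scaled with TMM and fitted with edgeR 4.0.16 in R 4.3.3 (quasi-likelihood, legacy set to FALSE, intercept and treatment). The biological coefficient of variation was 2.34%, with infinite prior degrees of freedom. The spread of each gene was thus taken from the pooled fit, not from its own replicates. A gene with noisy replicates gets no larger standard error for it. The chi-square per degree of freedom was 1.62 between controls and 2.05 between treated libraries, above sampling noise, so no libraries were merged. Alternatives were RLE or no scaling factors, no filter or a mean of at least 10 CPM, DESeq2 1.42.0, limma-voom (limma 3.58.1), robust and older quasi-likelihood fits, removal of ribosomal RNA loci, protein-coding genes only, and each library left out, which takes the spread of the remaining single library from the other group.

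Named are all called members, in each role group the uncalled member with the highest mean, members below the filter, and up to 3 called genes per group of the wider list. A called gene of the wider list is not reported here. Other uncalled members, the ratios between members, the copies and the motifs were chosen after values were seen. The members and lists were chosen with earlier results of these data known. Intervals are at the 95% level. Counts without molecular identifiers are not independent molecules, so the floor of 3 counts covers counting error only.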

Additional observations from a re-analysis of the deposited data

How the results depend on the processing

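Of the 17 called members 11 kept their call and direction under all 14 alternative settings, and 0 reversed. The other 6 lost it under 2 to 8 settings. DESeq2 called 836 genes in all and 9 members higher, beside 1894 and 15, and gave an adjusted p to 41 of the 46 tested members. Without scaling factors the members' median log2 fold change was 0.0601, and all genes split into 869 higher and 1016 lower, beside 1024 and 870. Leaving out each library in turn gave 1201 to 1502 called genes, the lowest without control replicate 1, and 11 to 14 members higher, 2 to 3 lower, a median of 0.07 to 0.11, and 13 to 16 called genes of the wider list. Of the 19 called genes of the wider list 12 kept their call throughout. No paired analysis was possible because the groups share only replicate number 2.

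Among uncalled members 16 changed sign at least once, and the cause was not tested. These log2 fold changes were, without filter, 0.0007624 (Snrpa1), 0.002884 (Prpf3) and 0.005093 (Sart1). For Sart1 they were 0.004827 with limma-voom and 0.002256 with protein-coding genes only. For Crnkl1 they were -0.000985 with RLE, -0.0278 without scaling, -0.02092 at a mean of at least 10 CPM, -0.01005 with DESeq2, -0.002665 with limma-voom and -0.001558 with the older quasi-likelihood method. Leaving out each library in turn gave, for the members whose sign changed, -0.03446 to 0.2173 (Luc7l), -0.06947 to 0.01813 (Luc7l2), -0.05783 to 0.264 (Prpf39), -0.1281 to 0.006358 (U2af1), -0.03108 to 0.006624 (Snrpa1), -0.03139 to 0.1302 (Sf3b2), -0.07948 to 0.8938 (Snrpe), -0.06497 to 0.05607 (Prpf3), -0.09915 to 0.2243 (Prpf4), -0.1496 to 0.1023 (Sart1), -0.1925 to 0.2573 (Snrnp27), -0.1603 to 0.1519 (Crnkl1), -0.2912 to 0.05228 (Prpf38a), -0.09498 to 0.01175 (Prpf38b), -0.02592 to 0.001016 (Prpf4b) and -0.3543 to 0.08694 (Wbp4).

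With 2 libraries a group, precision rests on the spread pooled over genes. Members with few counts, such as Sf3a2, Sart3 and Snrnp27, are limited by depth.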
